A study of Mus musculus with 6 samples.

Results

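The genes described here carry glucose into the muscle fibre, break it down to pyruvate and lactate, carry lactate out again, and store or release glycogen. They were taken as the rows whose symbol is 1 of 32 listed names, chosen by function, out of 23282 rows in each count table. All 32 names were found, and 31 of them had enough counts to be tested. Gastrocnemius muscle was sampled from male wild-type C57/BL6J mice aged 20 months. The 3 treated mice had been given inotodiol, a triterpenoid of the chaga mushroom, by mouth at 0.35 mg/kg every day for 10 weeks, and the 3 control mice were labelled as having received the vehicle of polyethylene glycol, Tween 80 and saline. No young mice and no mice lacking a receptor were analysed here, so the comparison concerns inotodiol against vehicle in old muscle.

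Glycolysis splits glucose into pyruvate in the cytosol and yields ATP without oxygen, and fast muscle fibres, which make up most of the mouse gastrocnemius, rely on it during short, hard work. Glucose enters through transporters of the SLC2A family, is trapped by hexokinase, and is committed to breakdown by phosphofructokinase. Fibres also keep glucose as glycogen, which glycogen synthase builds and glycogen phosphorylase takes apart on signals of calcium and adrenaline. Pyruvate that is not oxidised becomes lactate, which leaves fast fibres and is taken up by oxidative ones through monocarboxylate transporters.

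Libraries held 8961893 to 9953764 counts. Values are CPM, that is counts relative to the library size, scaled by TMM, which sets the libraries level on the bulk of their genes. The precursor ribosomal RNA Rn45s took from 3.97% to 10.2% of the counts. Markers of fast fibres summed to between 128587 and 132915 CPM in vehicle muscle and between 132659 and 142603 CPM in inotodiol muscle, and those of slow fibres to between 2056 and 2914 CPM in vehicle muscle and between 2351 and 2873 CPM in inotodiol muscle, so markers of both fibre types of the labelled muscle were present. The 14 hepatocyte markers summed to between 75.3 and 121 CPM in vehicle muscle and between 147 and 770 CPM in inotodiol libraries, and the 6 erythroid markers to between 5290 and 7519 CPM and between 4277 and 15055 CPM.

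None of the 31 members tested was called different between inotodiol and vehicle muscle by edgeR (quasi-likelihood test, adjusted p under 0.05), and the share called among all 11700 genes was 0%. The smallest adjusted p of a member was 0.96. At an unadjusted p under 0.05 there was 1 member, Slc16a3, of 31, or 3.23%, against 4.87% (570 genes) of all genes tested. DESeq2 and limma-voom called 0 members as well, with 1 gene (0.00855%) and 0 genes (0%) called over the whole table, and with no filter on low counts 95 genes (0.576%) and 0 members were called. The groups did not overlap for 3 members, or 9.68%, all of them higher with inotodiol, against 10.4% of all genes tested in either direction and 5.15% higher. Over both directions neither share was above that of all genes. The separation of the 3 members, Slc16a3, Pfkm and Gpd1, was read from TMM-scaled values. Relative to library totals without TMM, the groups overlapped for each of them. In bulk tissue, fewer cells of a type and less RNA per cell cannot be told apart.

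The fold changes of the members were small, from 0.687 for Pfkfb3 to 1.31 for Slc16a3. For 30 of the 31 members the 95% interval lay within a 2-fold change in either direction, and for 25 it lay within 1.5-fold. Among all 11700 genes tested, 7047 intervals lay within 2-fold and 3359 within 1.5-fold. The median standard error of a member's log2 fold change was 0.14, against 0.28 over all genes tested, so these genes were measured more precisely than most. The median log2 fold change was 0.074, a fold of 1.05, against -0.00073 over all genes. With TMM scaling 25 members stood above 0 and 6 below, against 49.9% of all genes above 0, but with library-total scaling, where the median of all genes moved to -0.12, 10 members stood above 0 and the members' median was -0.040. Relative to the median of all genes the members' median was 0.074 with TMM and 0.080 with library totals. Without vehicle replicate 3 the median was 0.036, and without vehicle replicate 2 it was 0.14. The 10 fast fibre markers lay on the same side, 10 of 10 above 0 with a median of 0.085, and their part in the members' values was not tested.

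**Figure D1:**
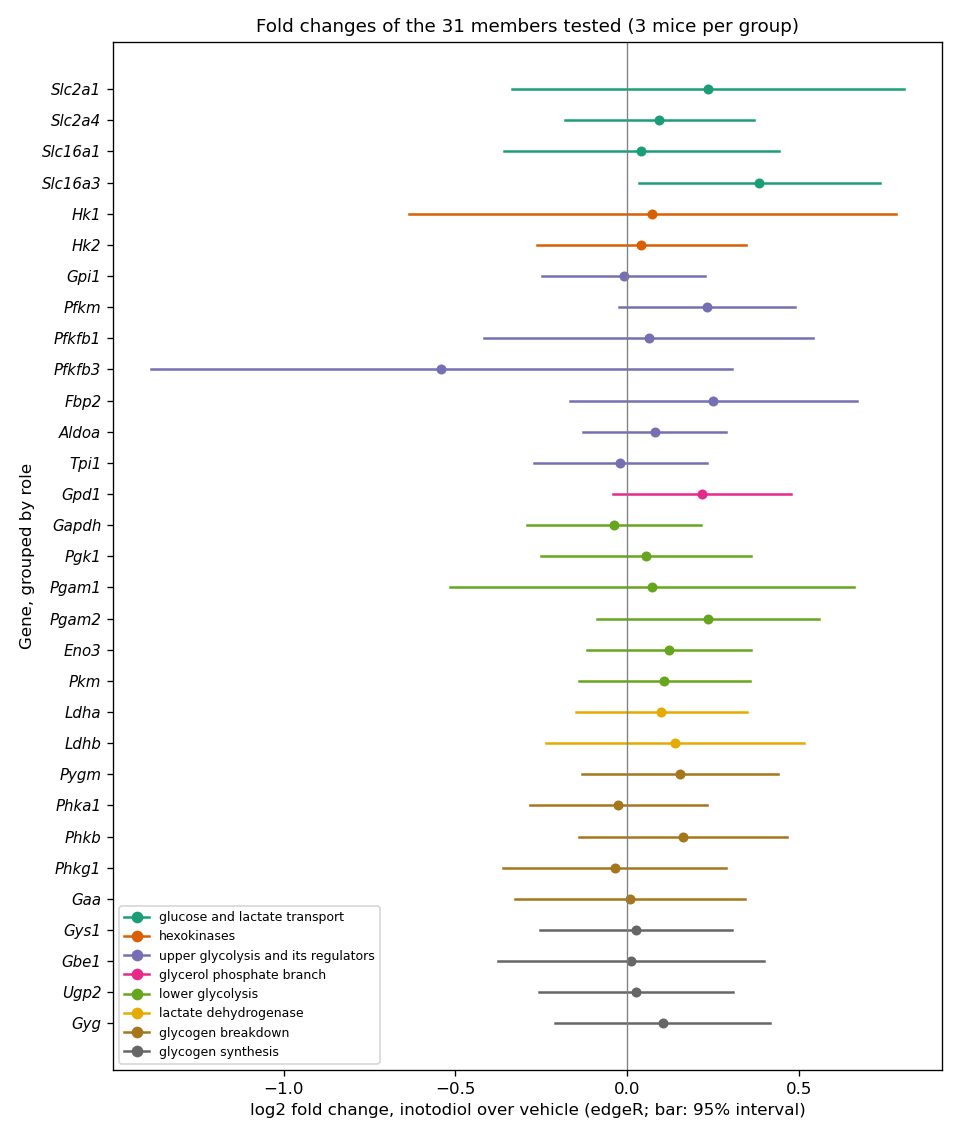
The log2 fold change of inotodiol over vehicle (x axis) is drawn for each of the 31 members tested (y axis), coloured by role, with its 95% interval from edgeR. The points lie between -0.54 (Pfkfb3) and 0.39 (Slc16a3), most intervals cross 0, and that of Slc16a3 does not, although its adjusted p is 0.96.

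The libraries did not contribute equally to this spread. Vehicle replicate 1 held the lowest value of 13 of the 31 members, or 41.9%, against 17.7% of all genes tested. Vehicle replicate 3 held the lowest value of 7 members, or 22.6%, against 15.3% of all genes. Highest values were most frequent in inotodiol replicate 3, with 8 members (25.8%, against 19.7% of all genes), and in vehicle replicate 2, with 7 members (22.6%, against 15.7%). Averaged over the 31 members, the level on the log2 scale stood at -0.059, 0.036 and -0.098 in vehicle replicates 1 to 3 around the mean of all libraries. The same average was 0.053, -0.0034 and 0.072 in inotodiol replicates 1 to 3, so the groups overlapped. Together the 32 genes took 4.22% ± 0.15 of all counts in vehicle and 4.19% ± 0.13 in inotodiol libraries (SD, n = 3), a difference smaller than the spread between mice.

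Transport of glucose and lactate was the group with the highest single fold change. Slc16a3 (chromosome 11, 120948480 to 120960868) encodes MCT4, the monocarboxylate transporter through which glycolytic fibres release lactate. It had 279, 370.4 and 376 CPM in vehicle replicates 1 to 3 and 388, 399 and 553 CPM in inotodiol replicates 1 to 3. With TMM scaling the groups did not overlap, but the gap between them was narrow, and inotodiol replicate 3 stood well above the other libraries. The log2 fold change was 0.39 ± 0.16 (SE; 95% interval 0.036 to 0.73), with an unadjusted p of 0.033 and an adjusted p of 0.96 in edgeR. Without inotodiol replicate 3 it was 0.20, and without vehicle replicate 1 it was 0.26.

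Slc2a4 (chromosome 11, 69942539 to 69948188) encodes GLUT4, the transporter that insulin and contraction bring to the fibre surface. Its levels were 495, 478 and 423 CPM in vehicle muscle and 468, 458 and 563 CPM in inotodiol muscle. The groups overlapped, with inotodiol replicate 3 again the highest library. For Slc2a4 the log2 fold change was 0.093 ± 0.13 (95% interval -0.18 to 0.37), a fold of 1.07. Slc2a1, which encodes the basal transporter GLUT1 found mainly in endothelial and other cells between the fibres, had 9.79, 13.1 and 15.7 CPM in vehicle muscle and 16.5, 11.4 and 17.5 CPM in inotodiol muscle. It rested on 93 to 171 counts per library and its log2 fold change was 0.24 ± 0.27, a difference smaller than its error, and 0.074 to 0.41 when 1 library was left out, the lowest without vehicle replicate 1. Slc16a1, which encodes the lactate transporter MCT1 of oxidative fibres, stood at 0.042 ± 0.19 on the same scale.

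Hexokinase traps glucose in the cell as glucose phosphate. Hk2 (chromosome 6, 82725025 to 82774454), the form of insulin-sensitive tissues, had 635, 748 and 547 CPM in vehicle muscle and 692, 724 and 571 CPM in inotodiol muscle. Both groups covered the same range, and the log2 fold change was 0.041 ± 0.14 (95% interval -0.26 to 0.34). Hk1, the form of brain and red cells, had 10.4, 12.2 and 8.05 CPM in vehicle muscle and 15.95, 6.99 and 9.33 CPM in inotodiol muscle. Inotodiol replicates 1 and 2 were thus the highest and the lowest library, and the log2 fold change of 0.074 ± 0.33 had the second widest interval of the members, -0.64 to 0.78.

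Phosphofructokinase catalyses the committed step of glycolysis, and Pfkm (chromosome 15, 98092589 to 98132451) encodes its muscle subunit. It had 1538, 1736 and 1578 CPM in vehicle muscle and 1763, 2160.2 and 1775 CPM in inotodiol muscle. With TMM scaling all 3 treated mice lay above all 3 controls, by a margin that was small beside inotodiol replicate 2, the highest library. For Pfkm the log2 fold change was 0.23 ± 0.12 (95% interval -0.024 to 0.49; adjusted p 0.96 in edgeR), and 0.13 without inotodiol replicate 2. It was above 0 under each of the 16 other settings tried, library-total scaling included, where it was lowest at 0.11.

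Enzymes that set the rate of this step varied more between mice. Pfkfb3 (chromosome 2, 11471433 to 11554077), which makes the fructose bisphosphate that activates phosphofructokinase, had 136, 62.8 and 31.4 CPM in vehicle muscle and 74.5, 36.1 and 47.9 CPM in inotodiol muscle. Its vehicle values spread from 31.4 to 136 CPM, with a coefficient of variation of 70.1%, the highest of the members, and the inotodiol values lay inside that range. On the log2 scale the fold change was -0.54 ± 0.39 (95% interval -1.39 to 0.31), and 0.16 without vehicle replicate 1, so its sign rested on that library. Fbp2, the muscle fructose bisphosphatase that runs the step in reverse, had 47.5, 64.2 and 53.8 CPM in vehicle muscle and 48.3, 69.7 and 79.0 CPM in inotodiol muscle. These ranges overlapped and the log2 fold change was 0.25 ± 0.19, or 0.095 without inotodiol replicate 3 and 0.43 without inotodiol replicate 1. Pfkfb1, the bifunctional form of liver and muscle, stood at 0.063 ± 0.22.

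The other enzymes of upper glycolysis had fold changes smaller than their standard errors. Aldoa, the muscle aldolase that splits the hexose into trioses, had 17452 ± 986 CPM in vehicle muscle and 18455 ± 186 CPM in inotodiol muscle (SD, n = 3). By itself Aldoa took from 1.64% to 1.94% of all counts of a library. Its log2 fold change was 0.081 ± 0.097, the smallest standard error of the members. Gpi1, glucose phosphate isomerase, stood at -0.010 ± 0.11 and Tpi1, triose phosphate isomerase, at -0.020 ± 0.12.

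Gpd1 (chromosome 15, 99717515 to 99725005) draws triose phosphate off glycolysis as glycerol phosphate, for the shuttle that carries cytosolic reducing power to mitochondria and for lipid synthesis. It had 258, 269 and 253 CPM in vehicle muscle and 281, 303 and 322 CPM in inotodiol muscle. With TMM scaling the groups did not overlap, and the 3 vehicle mice differed by little. On the log2 scale Gpd1 stood at 0.22 ± 0.12 (95% interval -0.040 to 0.48; adjusted p 0.96 in edgeR). It lay between 0.17 and 0.27 with single libraries left out and stood at 0.10 with library-total scaling. A transcript annotated antisense to Gpd1, Gm16537, shares 10.3% of its 50-base stretches, and the strand setting of the counts is not given in the sources used here.

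**Figure D2:**
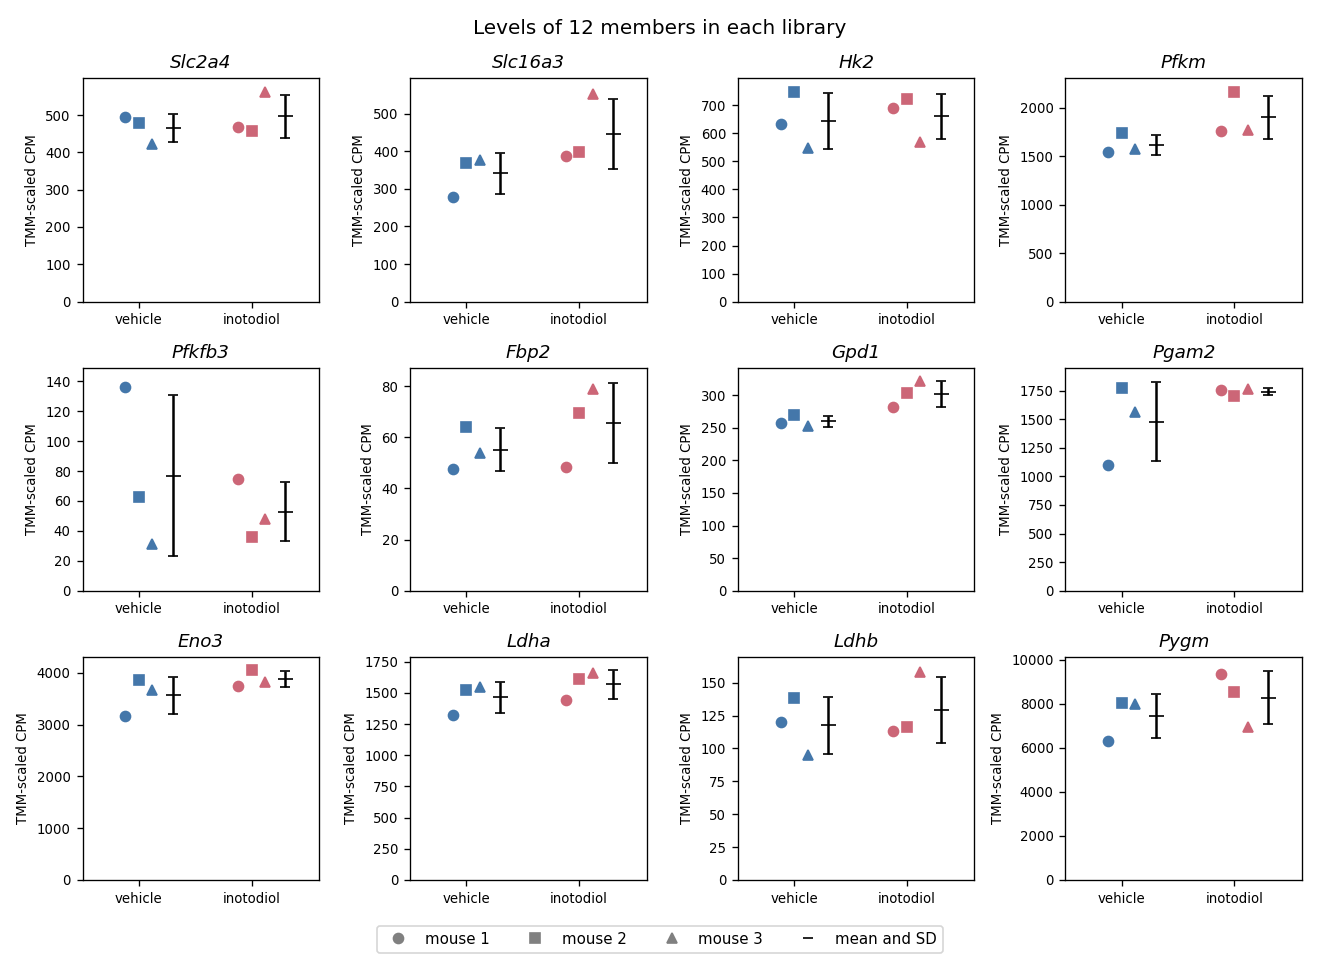
TMM-scaled CPM (y axis, starting at 0) of 12 members is plotted for each library by group, with a symbol for each mouse and the mean with its SD at the right of each group. The groups are apart for Slc16a3, Pfkm and Gpd1, and overlap for the other genes, with Pfkfb3 the most spread and vehicle mouse 1 low for Pgam2 (1101 CPM).

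Lower glycolysis turns triose phosphate into pyruvate and makes the ATP of the pathway. Pgam2 (chromosome 11, 5801640 to 5803733), the muscle phosphoglycerate mutase, had 1101, 1772 and 1563 CPM in vehicle muscle and 1755, 1703 and 1763 CPM in inotodiol muscle. The 3 inotodiol mice were close together, with a coefficient of variation of 1.87%, while vehicle replicate 1 was far below the other libraries. For Pgam2 the log2 fold change was 0.24 ± 0.15, and 0.062 without vehicle replicate 1. Eno3 (chromosome 11, 70657202 to 70662513), the muscle enolase, had 3167, 3858 and 3670.2 CPM in vehicle muscle and 3753, 4061 and 3826 CPM in inotodiol muscle. Here too the groups overlapped and vehicle replicate 1 was the lowest library, with a log2 fold change of 0.12 ± 0.11, and 0.044 without vehicle replicate 1. Pkm, pyruvate kinase, stood at 0.11 ± 0.12, and Pgk1, phosphoglycerate kinase, at 0.055 ± 0.14. Gapdh, the dehydrogenase often used as a reference gene, stood at -0.038 ± 0.12, with 301 ± 15.9 CPM in vehicle muscle and 293 ± 8.83 CPM in inotodiol muscle.

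Lactate dehydrogenase interconverts pyruvate and lactate, with an A subunit typical of fast fibres and a B subunit typical of heart and oxidative fibres. Ldha had 1324, 1521 and 1551 CPM in vehicle muscle and 1440.1, 1609 and 1663 CPM in inotodiol muscle, so the ranges overlapped. Its log2 fold change was 0.10 ± 0.12 (95% interval -0.15 to 0.35). Ldhb had 119.8, 138 and 94.97 CPM in vehicle muscle and 113, 117 and 158 CPM in inotodiol muscle. Inotodiol replicate 3 was the highest library and the 2 other treated mice lay inside the vehicle range. The log2 fold change of Ldhb was 0.14 ± 0.17, and -0.033 without inotodiol replicate 3.

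None of the 5 genes of glycogen breakdown passed the test, and 0 of all 11700 genes tested did. All 5 had 95% intervals within 1.5-fold, as had 3359 of the 11700 genes. Pygm (chromosome 19, 6384399 to 6398459) encodes muscle glycogen phosphorylase, whose loss causes McArdle disease. It had 6288 CPM in vehicle replicate 1, 8018 in vehicle replicate 2 and 8003 in vehicle replicate 3, against 9331, 8551 and 6954 CPM in inotodiol replicates 1 to 3. The groups overlapped because inotodiol replicate 3, the highest library for several transport genes, was here the lowest treated one. For Pygm the log2 fold change was 0.15 ± 0.13 (95% interval -0.13 to 0.44). It was 0.047 without vehicle replicate 1, 0.061 without inotodiol replicate 1 and 0.26 without inotodiol replicate 3. Among the subunits of phosphorylase kinase, which switches phosphorylase on, Phkb had 131, 119 and 118 CPM in vehicle muscle and 142, 152 and 118 CPM in inotodiol muscle, with a log2 fold change of 0.16 ± 0.14, and 0.085 without inotodiol replicate 2 and 0.26 without inotodiol replicate 3. The alpha subunit Phka1 stood at -0.025 ± 0.12 and the catalytic subunit Phkg1 at -0.036 ± 0.15. Gaa, the lysosomal glucosidase that is lost in Pompe disease, stood at 0.0092 ± 0.16.

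None of the 4 genes of glycogen synthesis passed the test, where 0 of all 11700 genes tested did, and all 4 intervals lay within 1.5-fold. Gys1 (chromosome 7, 45434844 to 45456619), muscle glycogen synthase, had 478, 595 and 501 CPM in vehicle muscle and 586, 480.4 and 537 CPM in inotodiol muscle. Both groups covered nearly the same range, with a log2 fold change of 0.027 ± 0.13 (95% interval -0.25 to 0.31). Gyg, glycogenin, which primes each glycogen particle, had 188, 239 and 235 CPM in vehicle muscle and 273, 229 and 208 CPM in inotodiol muscle, and a log2 fold change of 0.10 ± 0.15. The ranges overlapped, with inotodiol replicate 1 the highest. Ugp2, which makes the UDP-glucose that the synthase uses, had 455, 403 and 413 CPM in vehicle muscle and 365, 467 and 463 CPM in inotodiol muscle, with a log2 fold change of 0.027 ± 0.13. Gbe1, the branching enzyme, stood at 0.012 ± 0.18.

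Several steps are served by 2 genes whose balance differs between fibre types or between fibres and other cells, and Gys1 and Pygm act in opposite directions on glycogen. The ratio of the counts of such genes within a library does not depend on how libraries are scaled, and gene length cancels when groups are compared. Of 7 pairs compared with exact two-sided permutation tests, whose smallest possible p at 3 against 3 is 0.1, none passed after adjustment over the pairs (adjusted p from 0.7 to 0.9). Pgam2 over Pgam1, the muscle over the widespread mutase, had ratios of 143, 147 and 138 in vehicle and 151, 169 and 161 in inotodiol libraries. The groups did not overlap, in a log2 difference of 0.17 ± 0.052 (SE; p = 0.1, exact permutation test), which ranged from 0.13 to 0.21 with single libraries left out. This ratio was steady in vehicle replicate 1 although Pgam2 itself was low there, since Pgam1 was low as well, at 7.69 CPM.

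Slc16a3 over Slc16a1, the lactate exporter over the form of oxidative fibres, had ratios of 11.03, 10.3 and 11.7 in vehicle and 11.2, 12.9 and 17.98 in inotodiol libraries. The log2 difference was 0.32 ± 0.21, and 0.13 without inotodiol replicate 3. Ldha over Ldhb had ratios of 11.06, 11.03 and 16.3 in vehicle and 12.7, 13.8 and 10.5 in inotodiol libraries. The lowest and the highest ratio lay in replicate 3 of inotodiol and vehicle, and the log2 difference was -0.038 ± 0.22. The differences of the other pairs were 0.039 ± 0.37 for Hk2 over Hk1, -0.15 ± 0.30 for Slc2a4 over Slc2a1, 0.38 ± 0.72 for Pfkfb1 over Pfkfb3 and -0.12 ± 0.16 for Gys1 over Pygm, each smaller than its standard error.

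**Figure D3:**
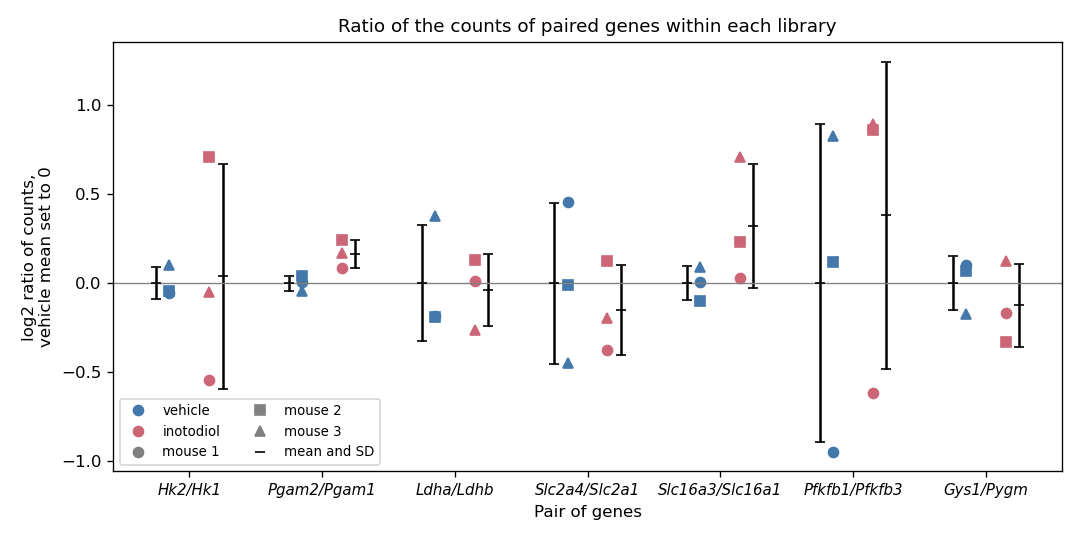
The log2 ratio of the counts of 2 genes in the same library (y axis, with the vehicle mean of each pair set to 0) is plotted for 7 pairs (x axis), with a symbol for each mouse and the mean with its SD beside each group. The inotodiol libraries lie above the vehicle libraries for Pgam2 over Pgam1, and the groups overlap for the other 6 pairs.

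How far reads can be assigned to 1 gene differs among these genes, since several have many near-identical pseudogenes. Words of 50 bases from the longest coding transcript of each member in GENCODE M21 were searched for in the transcripts of all other genes, on both strands. The words span the whole transcript, and where along it the reads fell was not examined. The percentages therefore describe sequence and not the share of reads affected. Of the 32 members 14 shared no word with another gene, among them Pfkm, Slc16a3, Slc2a4, Hk2, Pgam2, Eno3 and Fbp2, and 11 shared more than 10% of their words. For Gapdh 82.5% of the words were shared, for Pgk1 68.0%, for Pgam1 41.5% and for Pkm 34.4%, in each case mostly with processed pseudogenes. Ldhb shared 27% of its words, Gpi1 25.3%, Ldha 16.6% and Aldoa 13.5%. Values of all these genes, and so of the Pgam2 over Pgam1 and Ldha over Ldhb ratios, are uncertain where reads were split or dropped. How the authors treated reads that match several places is not given in the sources used here.

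Eno1, the enolase that most cells use, was listed at 0 in all 6 libraries. A count of 0 allows up to 3 counts, or 0.301 to 0.335 unscaled CPM per library, for counting error only. Of its words 72.2% were shared with other genes, with the largest overlap in Eno1b (70.5%), and 27.8% were found in no other transcript. The tables held 2 rows named Eno1b, with 100 to 178 counts per library in sum. No level of Eno1 was therefore read from these tables, and the pair of Eno3 and Eno1 was not compared. Aldoart1, a retrogene copy of Aldoa, had 686 to 836 counts per library, which was from 0.385% to 0.519% of the Aldoa count. Phkg1 shared 25% of its words with the overlapping gene Sumf2.

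**Figure D4:**
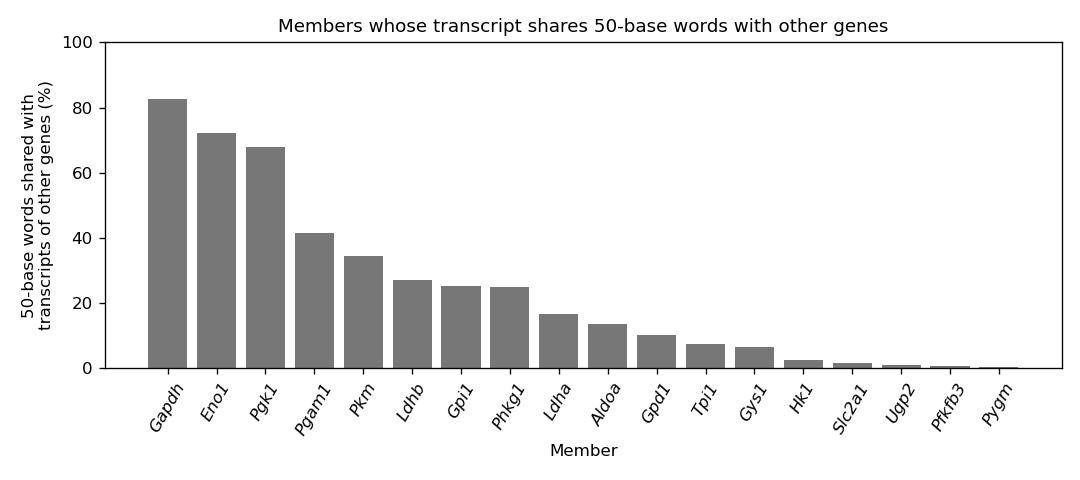
Bars give, for the 18 members with any, the percentage of 50-base words of the longest coding transcript that also occur in transcripts of other genes (y axis). Gapdh (82.5%), Eno1 (72.2%) and Pgk1 (68.0%) share most of their sequence.

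Beyond the members, 56 further genes of glucose and glycogen metabolism were examined, of which 41 were tested. With TMM scaling and the filter on low counts, none of them passed the threshold in either direction in edgeR, and 0 of all 11700 genes did. Calls under other settings are not reported here for this list. Of the 41, 22 stood above 0 (53.7%, against 49.9% of all genes) and 19 below, and the median log2 fold change was 0.026. The groups did not overlap for 5 of the 41, 2 higher and 3 lower with inotodiol, or 12.2%, close to the 10.4% of all genes tested. Tbc1d4, which encodes the Rab regulator AS160 that holds GLUT4 inside the cell until insulin signals, had 88.5, 59.5 and 47.2 CPM in vehicle muscle and 47.96, 49.7 and 38.4 CPM in inotodiol muscle. The groups overlapped, and vehicle replicate 1 was far above the rest. Its log2 fold change was -0.52 ± 0.21 (unadjusted p 0.030, adjusted p 0.96 in edgeR), and -0.23 without vehicle replicate 1.

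Ppp1r3c targets protein phosphatase to glycogen and so favours its storage. It had 1451, 2178 and 2463 CPM in vehicle muscle and 2267, 2326 and 2898 CPM in inotodiol muscle, with a log2 fold change of 0.30 ± 0.17, or 0.11 without vehicle replicate 1. The groups overlapped, and vehicle replicate 1 was again the lowest library, as it was for Slc16a3 and Pgam2.

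Some forms of these enzymes are typical of liver. The summed hepatocyte markers went from 75.3 CPM in vehicle replicate 1 to 770 CPM in inotodiol replicate 1, and all 13 of them tested stood above 0 with a median log2 fold change of 2.76, none of them called. Fbp1, the fructose bisphosphatase of liver, had 4, 2 and 1 counts in vehicle and 25, 9 and 5 in inotodiol libraries. Pygl, the liver phosphorylase, which is also found outside the liver, stood at 0.22 ± 0.41, and its highest library was inotodiol replicate 1 with 10.9 CPM. Slc2a2 had 0, 2 and 2 counts in vehicle and 10, 11 and 1 in inotodiol libraries, and Pklr and Gys2 had at most 5 counts in any library. The muscle forms Aldoa, Fbp2, Pygm and Gys1 had log2 fold changes of 0.081, 0.25, 0.15 and 0.027. Whether liver RNA took part in the values of Gpd1, Pfkfb1 or Ugp2, which liver also expresses, was not tested. Without the hepatocyte list and the Mup and Serpina1 families the members' median was 0.076. Leaving those rows out does not alter the members' counts, so this value cannot answer that question.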

How the data were processed

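The authors deposited 1 table per mouse with raw counts of reads per gene symbol; per the labels' protocols, a Lexogen Quant-Seq kit turned total RNA into libraries. The submitters' processing notes name Bowtie2, bedtools and the mm10 build, whereas versions, annotation, strand setting and the handling of multiply matching reads were not given in the sources used here. From the counts, 11700 genes passed edgeR's filterByExpr (minimum count 10, minimum total 15). After TMM scaling, edgeR 4.0.16 (R 4.3.3) compared the groups with its two-sided quasi-likelihood test, group being the sole term, and p-values were adjusted over all genes by Benjamini-Hochberg at 0.05. Standard errors combine the fit's weights with the moderated quasi-dispersion. The edgeR p-values set the group difference against a dispersion estimated among 3 mice per group and moderated over all genes. The common biological coefficient of variation was 27.2%. The gene test was tested on simulated counts with known changes, and the outcome is not reported here.

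The members and lists were chosen with earlier results of these data known. Members described in full were those in each of 8 role groups with the 2 smallest p, plus 10 set whatever the result; of the 56 other pathway genes, the 4 with the smallest p and the liver forms were to be named, and some of these are not reported here. Marker lists for fast and slow fibres, hepatocytes, erythroid cells, adipocytes, macrophages, endothelium and Schwann cells were summed; adipocyte markers held 370 to 495 CPM in vehicle and 279 to 482 in inotodiol libraries, macrophage markers 52.5 to 139 and 41.9 to 116, endothelial markers 84.6 to 106 and 91.6 to 97.2, and Schwann markers 68.0 to 91.8 and 95.3 to 186. Gene spans are from GENCODE M21 (GRCm38, the assembly of mm10). Other settings were scaling by RLE, upper quartile or library total, no filter or at least 1 CPM in every library, limma-voom (limma 3.58.1), DESeq2 1.42.0, the replicate block, the 0.10 threshold, single libraries omitted in turn, and fits without liver genes or Rn45s.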

Additional observations from a re-analysis of the deposited data

How the results depend on the processing

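No member was called under any of the 17 alternatives run, and the 9 members that follow kept a log2 fold change above 0 under the 16 that refitted it, though its size moved. The ranges were 0.20 to 0.48 for Slc16a3, 0.11 to 0.29 for Pfkm, 0.10 to 0.27 for Gpd1, 0.062 to 0.39 for Pgam2, 0.0060 to 0.19 for Eno3, 0.095 to 0.43 for Fbp2, 0.031 to 0.26 for Pygm, 0.037 to 0.26 for Phkb and 0.074 to 0.41 for Slc2a1. The lowest values of Pfkm, Gpd1, Eno3, Pygm and Phkb came with library-total scaling. The count of genes called over all genes was 95 with no filter on low counts, 1 with DESeq2, and 0 to 25 when 1 library was left out, the 25 without inotodiol replicate 3. The median log2 fold change of the members was -0.040 with library-total scaling, where the median of all genes was -0.12, and 0.036 to 0.14 when 1 library was left out. That scaling also turned the sign of Slc2a4 (-0.017), Slc16a1 (-0.074), Hk1 (-0.045), Hk2 (-0.078), Pfkfb1 (-0.040), Aldoa (-0.039), Pgk1 (-0.064), Pgam1 (-0.041), Pkm (-0.0091), Ldha (-0.014), Gaa (-0.10), Gys1 (-0.087), Gbe1 (-0.11), Ugp2 (-0.088) and Gyg (-0.018), and Gaa stood at -0.0034 with upper-quartile scaling. With single libraries left out the sign changed within the ranges Slc2a4 -0.0072 to 0.15, Slc16a1 -0.088 to 0.17, Hk1 -0.32 to 0.31, Hk2 -0.063 to 0.17, Gpi1 -0.034 to 0.020, Pfkfb1 -0.18 to 0.25, Pfkfb3 -0.92 to 0.16, Tpi1 -0.059 to 0.043, Gapdh -0.063 to 0.0049, Pgk1 -0.019 to 0.16, Pgam1 -0.10 to 0.20, Ldhb -0.033 to 0.28, Phka1 -0.089 to 0.027, Phkg1 -0.074 to 0.036, Gaa -0.10 to 0.13, Gys1 -0.044 to 0.13, Gbe1 -0.15 to 0.14, Ugp2 -0.032 to 0.14, Gyg -0.011 to 0.19 and Pygl -0.35 to 0.49, and for the log2 ratios Hk2 over Hk1 -0.30 to 0.33, Ldha over Ldhb -0.13 to 0.15, Slc2a4 over Slc2a1 -0.37 to 0.080 and Pfkfb1 over Pfkfb3 -0.092 to 0.88. The ratios could not pass at any setting, the smallest permutation p being 0.1 with all 6 libraries. The cause was not tested. With the replicate block, 0 genes were called and the members' median was 0.082. Deviations from the group mean correlated at -0.081, 0.108 and 0.0225 between same-numbered mice, for numbers 1 to 3. Between differently numbered mice the correlations ran from -0.127 to 0.097. With 3 mice per group these values cannot decide whether the labels' numbers mark pairs, and the numbers were not taken as pairs. Depth limits Hk1, Pgam1 and Slc2a1, whose lowest counts were 63, 73 and 93.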
